A study of Mus musculus with 40 samples.

Results

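The expression of 8 genes of dicarbonyl and glycation defence (Glo1, Hagh, Ldhd, Akr1a1, Park7, Fn3k, Fn3krp and Ager) was examined in the renal cortex of diabetic and non-diabetic mice. They were taken by gene symbol, by a rule that uses no measured value but was written with earlier results of these data known, and all 8 were found among the 55401 genes of the table. RNA depleted of ribosomal RNA was sequenced from 40 individual male C57BL/6J mice, 5 in each of 8 groups. Akita mice (Ins2-Akita heterozygous, labelled diabetic) and wild type littermates (WT, labelled non-diabetic) each received ethanol vehicle, MitoGamide, water vehicle or MitoQ. The ethanol vehicle was 10% ethanol in water, MitoGamide was given at 10 mg/kg by daily oral gavage, and treatment ran from 6 to 22 weeks of age. The labels put MitoQ in the water vehicle and give no dose for it, and their treatment text describes the ethanol arm only. MitoGamide is a mitochondria-targeted scavenger of dicarbonyls and MitoQ is a mitochondria-targeted antioxidant. The Akita mutation misfolds insulin in the pancreatic beta cell, so the model is one of insulin deficiency present from early life, and only males were studied.

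Methylglyoxal, a reactive dicarbonyl, forms mainly as a by-product of glycolysis and modifies proteins and DNA, which gives advanced glycation end-products (AGEs). Cells clear it chiefly through the glyoxalase pathway: with glutathione it is converted by glyoxalase 1 and then by glyoxalase 2 to D-lactate, which mitochondrial D-lactate dehydrogenase oxidizes to pyruvate. Aldehyde reductases offer a parallel route, fructosamine kinases repair glycated proteins, and the receptor RAGE binds AGEs. The kidney is a major site of AGE handling, and the proximal tubule, the most abundant cell type of the cortex, is rich in mitochondria.

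Total estimated counts ran from 9106654 to 24321424 per library, with a median of 15638394. All 6 proximal tubule markers examined (Slc34a1, Lrp2, Slc5a2, Slc5a12, Slc22a6, Cubn) were detected, with a summed level of 7476 to 14983 counts per 1000000 counts (CPM) per library, whereas 4 inner medulla and urothelium markers summed to 0.0924 to 28.9 CPM. In 6 libraries the mean correlation with the others lay below 0.957 (median of all libraries, 0.972): Akita water 2 and 5, WT water 3 and 4, WT MitoQ 3 and Akita MitoGamide 5. In the 5 of these in the water arm the mitochondrial transcript mt-Co1 was at 3273 to 5822 CPM (unscaled), against 6698 to 24887 CPM in the remaining libraries. It was at 13942 to 24887 CPM in the ethanol arm and at 6698 to 16844 CPM in the other libraries of the water arm. In 4 of the 5 the sum of the mitochondrial genes went the other way, at 372927 to 492410 CPM. It was 225389 CPM in WT water 4, against 142831 to 367420 CPM in the remaining libraries. The part of this in the results was not tested, and the main values that rest on these 6 libraries are given with and without them. In bulk cortex, fewer cells of a type and less RNA per cell cannot be told apart.

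Levels per kb of merged exons, averaged over the 40 libraries, were highest for Akr1a1 (364 CPM per kb), followed by Ldhd (84.0), Hagh (48.2) and Park7 (38.6). Fn3krp (6.29 CPM per kb), Glo1 (4.48) and Fn3k (2.98) were far lower, and Ager (0.301) was lowest. The order of neighbours depends on the length used. Per kb of the principal transcript Park7 (102 CPM per kb) exceeded Hagh (77.1), and Fn3k (12.5) exceeded Fn3krp (6.29) and Glo1 (5.50). The merged exons of Glo1 span 12101 bases, against 1908 for Hagh. Without division by length Glo1 averaged 54.2 CPM, against 91.9 CPM for Hagh, 95.7 CPM for Park7 and 15.8 CPM for Fn3krp. The size of the gap between Glo1 and Hagh thus depends on length, as does the place of Glo1 below Fn3krp. Ager was detected at 1 to 24 counts per library and had a mean under the 10 counts required for testing in several comparisons.

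**Figure D1:**
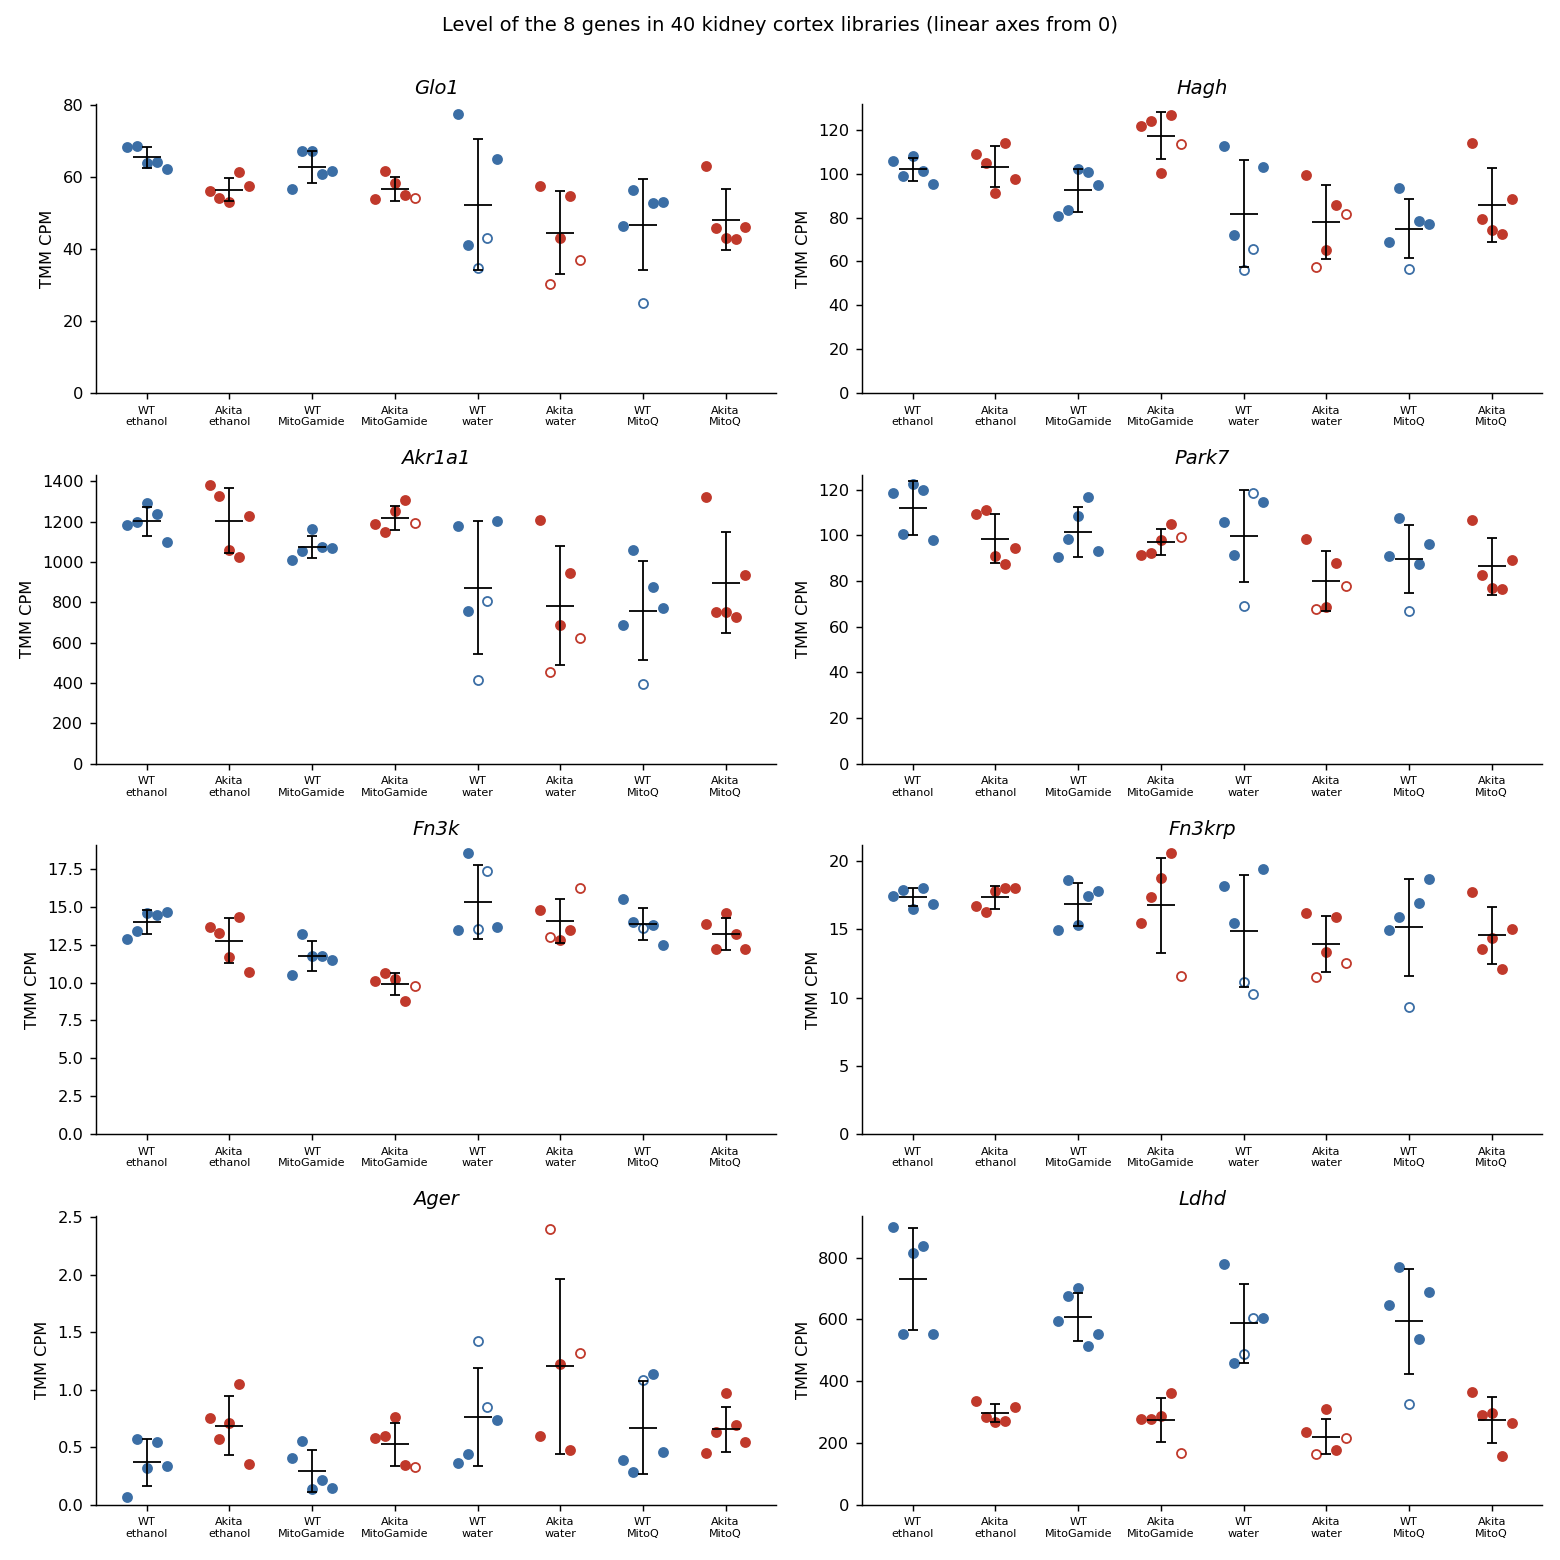
Normalised level (CPM, linear axis from 0) of each of the 8 genes in each of the 40 libraries, by treatment and genotype (WT blue, Akita red). Bars give mean ± SD of 5 mice and open circles mark the 6 libraries that stand apart; Ldhd separates the genotypes on ethanol vehicle, MitoGamide and water vehicle, and on MitoQ apart from WT MitoQ 3.

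Ldhd, the gene of mitochondrial D-lactate dehydrogenase, lies on the minus strand of GRCm38 at chr8:111623785-111630374, and its principal transcript has 11 exons and 2273 bases. Because it carried the largest genotype difference among the 8 genes, its promoter (RefSeq, GRCm38.p6, chr8:111630287-111630586, minus strand, 250 bases before to 50 after the start) is shown. The promoter of Hagh, glyoxalase 2, at chr17:24850417-24850716 on the plus strand is set beside it because it was the only promoter of the set that held the core of the antioxidant response element, TGACNNNGC, in capitals. Both sequences run 5′ to 3′.
Ldhd: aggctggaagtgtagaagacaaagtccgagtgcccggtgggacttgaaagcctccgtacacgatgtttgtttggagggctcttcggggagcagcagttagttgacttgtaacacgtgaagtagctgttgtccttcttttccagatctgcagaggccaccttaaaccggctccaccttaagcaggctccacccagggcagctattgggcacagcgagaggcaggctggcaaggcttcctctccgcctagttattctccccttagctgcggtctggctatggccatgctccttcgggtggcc
Hagh: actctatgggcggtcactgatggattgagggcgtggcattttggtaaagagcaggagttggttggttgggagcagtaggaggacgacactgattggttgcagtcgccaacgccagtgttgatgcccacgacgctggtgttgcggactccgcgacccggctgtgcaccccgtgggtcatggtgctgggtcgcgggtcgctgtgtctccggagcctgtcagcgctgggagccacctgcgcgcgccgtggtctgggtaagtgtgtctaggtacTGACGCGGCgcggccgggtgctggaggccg
The motif, searched on both strands, was found in 12.4% of all 32851 promoters of this length. It was absent from the window of Ldhd and from those of Glo1, Akr1a1, Park7, Fn3krp and Ager, and from the other window of Hagh. Of the 8 genes, 7 had an entry in the promoter table (Fn3k did not). The Ldhd window held 11 CpG dinucleotides at 56.3% GC, and the Hagh window held 27 at 64.3%.

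The first comparison was between Akita and WT mice within each treatment. Ldhd was called lower in Akita in 3 of the 4 treatments and on average over all 4, by 2.37-fold. Glo1 was called lower on ethanol vehicle, Hagh higher on MitoGamide, and Fn3k lower on average, each by a small amount. On ethanol vehicle 2 of 8 genes tested were called in Akita (edgeR quasi-likelihood test, adjusted p under 0.05), both lower, against 16.4% of all genes (8.22% lower). The count was 2 of 7 on MitoGamide, 1 higher and 1 lower (background 14.3%, of which 7.71% higher and 6.6% lower), 1 of 8 on water vehicle, lower (background 0.552%, 0.366% lower) and 0 of 7 on MitoQ (background 0.557%). On MitoQ, 1 of the 7 had an unadjusted p under 0.05 in edgeR and 1 was called by DESeq2, in both cases Ldhd, beside 9.06% of all genes at an unadjusted p under 0.05 and 2.29% called by DESeq2. Averaged over the 4 treatments, 2 of 7 were called, both lower, beside 22.8% of all genes (11.9% lower).

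In the ethanol vehicle groups, Ldhd was at 898, 553, 814, 836 and 552 CPM in the 5 WT mice and at 335, 284, 269, 272 and 316 CPM in the 5 Akita mice. Every Akita value lay under every WT value. The means were 731 ± 166 and 295 ± 29.1 CPM (SD, n = 5), a log2 fold change of -1.29 (SE 0.14, 95% interval -1.59 to -0.99, edgeR adjusted p = 6.86e-05). This corresponded to a 2.44-fold lower level, and the call was made in 10 of 10 fits that left out 1 library.

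With MitoGamide, Ldhd was at 595, 675, 700, 514 and 553 CPM in WT and at 277, 277, 288, 362 and 166 CPM in Akita mice, again without overlap. The log2 fold change was -1.11 (SE 0.18, edgeR adjusted p = 0.00267), and the call was made in 10 of 10 fits with 1 library left out. The lowest value, 166 CPM, was that of Akita MitoGamide 5, one of the 6 libraries that stand apart, without which the log2 fold change was -0.98.

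In the water vehicle groups, Ldhd was at 779, 459, 486, 603 and 606 CPM in WT and at 236, 165, 308, 178 and 214 CPM in Akita mice. WT water 1, the highest value, also held the most transcript of Alb (albumin, a liver gene) of the 40 libraries, 292 CPM where the next library had 31.2 CPM. Without it the log2 fold change of Ldhd was -1.28 (edgeR adjusted p = 0.0470). The groups did not overlap, the Akita mean of 220 ± 56.8 CPM being 2.67-fold lower (log2 fold change -1.42, SE 0.22, edgeR adjusted p = 0.0150). The adjusted p was 0.0557 without Akita water 4 and 0.0538 without Akita water 5. With the replicate number as a block it was 0.0559, at a log2 fold change of -1.43. Without the 4 libraries of these groups that stand apart, the log2 fold change was -1.36 and the adjusted p was 0.356 in 6 remaining libraries.

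On MitoQ, Ldhd was at 646, 769, 327, 536 and 688 CPM in WT and at 365, 289, 296, 158 and 265 CPM in Akita mice. A single WT value, 327 CPM in WT MitoQ 3, which stands apart, fell below the highest Akita value of 365 CPM. Its log2 fold change of -1.11 (SE 0.26, interval -1.68 to -0.54) was not called by edgeR (adjusted p = 0.0945). Without WT MitoQ 3 it was -1.27 with an adjusted p of 0.0136, and DESeq2 on all 10 libraries gave an adjusted p of 0.00322.

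Over the 40 libraries, 19 of the 20 WT values of Ldhd exceeded the highest Akita value and 17 of the 20 Akita values were below the lowest WT value. The genotype difference averaged over the 4 treatments was -1.24 on the log2 scale (SE 0.11, interval -1.46 to -1.03, edgeR adjusted p = 3.02e-11), was called in 40 of 40 fits with 1 library left out, and was -1.22 without the 6 libraries that stand apart. The 4 within-treatment differences ran from -1.42 to -1.11, and a test of their inequality gave an unadjusted p of 0.729 (edgeR, 3 degrees of freedom). The difference of Ldhd was not shown to vary with treatment. In this test 0 of 7 genes were called (background 0.0%). At an unadjusted p under 0.05 there were 0, beside 4.97% of all genes, and DESeq2 called 0, beside 0.0844%.

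Of the 6 proximal tubule markers, 2 also differed with genotype. Lrp2 (megalin, -0.38, adjusted p = 0.0140) and Slc34a1 (the sodium-phosphate cotransporter, -0.29, adjusted p = 0.00317) were lower in Akita in the averaged edgeR test. The other 4 were not called, with log2 fold changes from -0.22 for Slc22a6 to 0.24 for Cubn. The summed level of the 6 was 11997 to 14983 CPM in WT and 9244 to 12388 CPM in Akita mice on ethanol vehicle, and 12653 to 13759 against 9009 to 11084 CPM on MitoGamide. On water vehicle it was 7476 to 12767 against 7537 to 11621 CPM, and on MitoQ 7732 to 12912 against 8078 to 11808 CPM.

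Ldhd was also set against that marker sum in the same library. Lrp2 and Slc34a1, the 2 markers called lower in Akita, made up most of the sum. In WT mice on ethanol vehicle they averaged 6836 and 4025 CPM, of a sum of 13592 CPM. On ethanol vehicle the ratio averaged 0.0534 ± 0.00912 in WT and 0.0268 ± 0.00201 in Akita mice (SD, n = 5). The means were 0.0461 and 0.0275 on MitoGamide, 0.0578 and 0.0245 on water vehicle and 0.0574 and 0.0292 on MitoQ. The ranges of WT and Akita did not overlap in any of the 4 treatments, and on MitoQ, where the levels themselves overlapped, the lowest WT ratio was 0.0423 and the highest Akita ratio 0.0343. Markers of other cell types also differed on average: 3 of 3 principal cell markers (Aqp2, Aqp3, Scnn1g) were higher in Akita, and 2 of 4 macrophage markers (Csf1r, Adgre1) were lower, and their part in the differences of the 8 genes was not tested.

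Part of Ldhd overlaps a neighbour on the opposite strand, Znrf1. The longest Ldhd transcript, annotated as a retained intron, shares 2246 bases with exons of Znrf1, and the principal transcript shares 0. Znrf1, a ubiquitin ligase gene, had a mean level of 3.07% of that of Ldhd (CPM, not per length), and its averaged genotype difference was -0.04 on the log2 scale (edgeR adjusted p = 0.832).

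**Figure D2:**
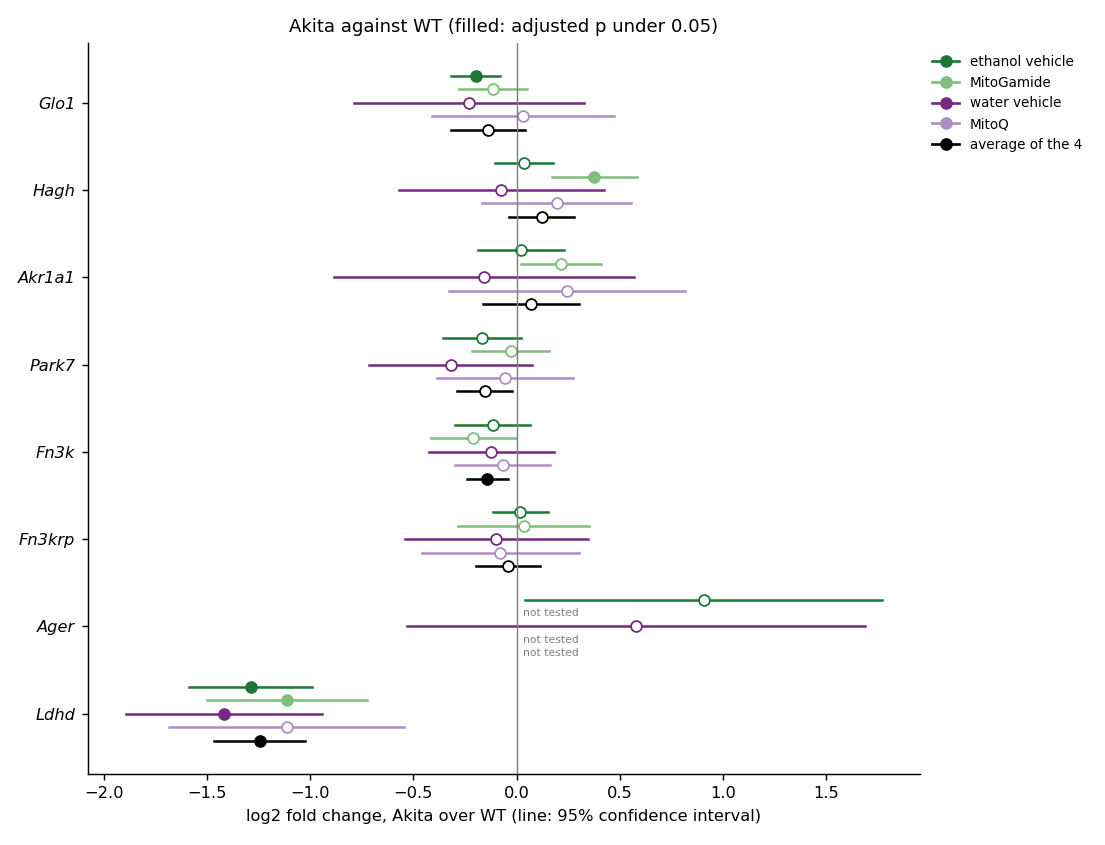
Log2 fold change of Akita against WT for each gene within each treatment and averaged over the 4 treatments (horizontal axis). Lines are 95% intervals and filled points are called at an edgeR adjusted p under 0.05; Ldhd lies between -1.42 and -1.11 in all 4 treatments while Glo1 on ethanol vehicle, Hagh on MitoGamide and Fn3k on average are the only other filled points.

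Glo1, glyoxalase 1, catalyses the first step of methylglyoxal clearance and lies at chr17:30584936-30626871 on the minus strand. On ethanol vehicle it was at 68.5, 68.8, 64.0, 64.2 and 62.4 CPM in WT and at 56.2, 54.2, 53.2, 61.4 and 57.6 CPM in Akita mice. The groups did not overlap, although the highest Akita value and the lowest WT value were close. The difference was -0.20 on the log2 scale (SE 0.06, interval -0.32 to -0.08, edgeR adjusted p = 0.0264), or 1.15-fold lower.

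The call depended on single libraries and on the setting. It was lost without a count filter (adjusted p = 0.0961), in 1 fit of all 40 libraries (0.681) and with the replicate number as a block (0.0580). The log2 fold changes were then -0.19, -0.20 and -0.20. It was made in 5 of the 10 fits with 1 library left out and lost without WT ethanol 1 or 2 or Akita ethanol 1, 2 or 3, with adjusted p-values up to 0.0752. Glo1 was not called on MitoGamide (log2 fold change -0.11, adjusted p = 0.324), water vehicle (-0.23, SE 0.26) or MitoQ (0.03, SE 0.20), nor on average (-0.14, SE 0.09, adjusted p = 0.276, all edgeR). A processed pseudogene of Glo1 that is 99.459% identical over 555 bases was detected in 7 libraries with at most 23 counts, 0.133% of the counts of Glo1. Stretches of 103 to 170 bases were also over 95% identical to genes more abundant than that pseudogene but less abundant than Glo1. These were Npepps, Slfn5, Mvp and Snf8, at 92.8%, 82.2%, 52.5% and 36% of the mean level of Glo1 (CPM). Their part in the counts of Glo1 was not tested.

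Hagh encodes glyoxalase 2, the second enzyme of the pathway, at chr17:24840143-24864450 on the plus strand. On ethanol vehicle its means were 102 ± 5.09 CPM in WT and 103 ± 9.15 CPM in Akita mice (SD, n = 5), which differed by 0.04 on the log2 scale (SE 0.06). On MitoGamide it was at 80.7, 83.5, 102, 101 and 94.7 CPM in WT and at 122, 124, 100, 127 and 114 CPM in Akita mice. All but 1 Akita value exceeded every WT value, and Akita MitoGamide 3 lay within the WT range.

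The MitoGamide difference of Hagh was 0.38 on the log2 scale (SE 0.09, interval 0.17 to 0.58, edgeR adjusted p = 0.0225), and 7 of 10 fits with 1 library left out made the call. It was lost without WT MitoGamide 1 (adjusted p = 0.0549), WT MitoGamide 2 (0.0619) or Akita MitoGamide 2 (0.0560). The call was also lost in 1 fit of all 40 libraries (log2 fold change 0.37, edgeR adjusted p = 0.0925). Hagh was not called on water vehicle (-0.07, SE 0.23), MitoQ (0.19, SE 0.17) or on average (0.12, SE 0.08, edgeR adjusted p = 0.282). The test that the 4 genotype differences are unequal gave an unadjusted p of 0.248, so the MitoGamide value was not shown to stand apart from the other 3.

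Akr1a1, aldehyde reductase, reduces methylglyoxal and other carbonyls with NADPH, and was the most abundant of the 8 genes (chr4:116636510-116651680, minus strand). On MitoGamide it was at 1010, 1054, 1164, 1074 and 1067 CPM in WT and at 1189, 1150, 1252, 1307 and 1192 CPM in Akita mice, and only WT MitoGamide 3 reached the Akita range. The log2 fold change of 0.22 (SE 0.09) was not called by edgeR (adjusted p = 0.122). DESeq2 gave an adjusted p of 0.0130, in a comparison where it called 18.5% of all genes. On ethanol vehicle both means were close, 1202 ± 71.4 CPM in WT and 1205 ± 160 CPM in Akita mice (SD, n = 5). The averaged difference was 0.07 (SE 0.12, edgeR adjusted p = 0.737).

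Park7, which encodes the redox-sensitive protein DJ-1 (a proposed deglycase), lies at chr4:150897133-150914437 on the minus strand. Its 4 genotype differences all had the same sign, -0.17 on ethanol vehicle, -0.03 on MitoGamide, -0.32 on water vehicle and -0.06 on MitoQ on the log2 scale, and the groups overlapped in each. On ethanol vehicle the values were 119, 101, 122, 120 and 97.8 CPM in WT and 109, 111, 90.9, 87.4 and 94.3 CPM in Akita mice. The averaged difference of -0.16 (SE 0.06, interval -0.29 to -0.02) had an unadjusted p of 0.0220 and was not called by edgeR (adjusted p = 0.0813). The adjusted p was 0.0402 without WT water 3 and 0.0281 when 10 counts were required in every library.

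The fructosamine kinases Fn3k and Fn3krp phosphorylate sugar residues bound to proteins, which then detach. They are neighbours on the plus strand of chromosome 11, Fn3krp at chr11:121421401-121431288 ending 3624 bases before Fn3k at chr11:121434913-121450491. Fn3k was lower in Akita mice on average by 0.14 on the log2 scale (log2 fold change -0.14, SE 0.05, edgeR adjusted p = 0.0308), with differences of -0.12, -0.21, -0.12 and -0.07 on ethanol vehicle, MitoGamide, water vehicle and MitoQ, none of which was called alone. The averaged call was made in 16 of 40 fits with 1 library left out (adjusted p up to 0.105), and the adjusted p was 0.0579 without the 6 libraries that stand apart. Without a count filter the edgeR adjusted p was 0.186, at a log2 fold change of -0.13. Fn3krp was not called in any treatment, with log2 fold changes of 0.02, 0.03, -0.10 and -0.08, and averaged -0.04 (SE 0.08, edgeR adjusted p = 0.748).

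Ager encodes RAGE, the receptor for AGEs, at chr17:34597862-34600936 on the plus strand. In the ethanol groups the estimated counts were 1, 11, 8, 9 and 7 in WT and 16, 11, 10, 23 and 6 in Akita mice. The ranges overlapped, and the log2 fold change of 0.91 (SE 0.40, interval 0.04 to 1.77) had an unadjusted p of 0.0411 and was not called by edgeR (adjusted p = 0.146). The WT counts averaged under the 10 required, so Ager passed the filter here only through the Akita mice. Only 8 of the fits with 1 library left out could test it. The p-value and interval depend on that filter and decide nothing about the genotypes. Averaged over the treatments without a count filter, the log2 fold change of Ager was 0.63 (SE 0.23, edgeR adjusted p = 0.0775). Ager is best known from alveolar cells of the lung, and 3 markers of lung epithelium (Aqp5 and Rtkn2 of type 1 cells, Sftpc of type 2 cells) summed to 0 to 0.709 CPM per library, with Sftpc at 0 in every library of 6 groups.

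The second comparison asked what the mitochondria-targeted compounds changed within a genotype. None of the 8 genes was called for MitoGamide against ethanol vehicle in Akita mice (0 of 8, background 1.26%) or in WT mice (0 of 7, background 0.0%) by edgeR. An unadjusted p under 0.05 was reached by 2 genes in each genotype (Hagh and Fn3k in Akita, Akr1a1 and Fn3k in WT mice), beside 20.9% of all genes in Akita and 10.6% in WT mice, and DESeq2 called Fn3k (1 gene) in Akita and none in WT mice, beside 6.27% and 0.425% of all genes. Only Fn3k was called when the genotypes were averaged.

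On ethanol vehicle, Fn3k was at 13.7, 13.3, 11.7, 14.4 and 10.7 CPM in Akita mice, and with MitoGamide at 10.1, 10.7, 10.2, 8.78 and 9.76 CPM. The ranges touched at 10.7 CPM without overlapping. The log2 fold change was -0.36 (SE 0.10, interval -0.57 to -0.15, unadjusted p = 0.00292, edgeR adjusted p = 0.0782), and the DESeq2 adjusted p was 0.0342.

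WT mice had Fn3k at 12.9, 13.4, 14.6, 14.4 and 14.7 CPM on ethanol vehicle and at 10.5, 13.2, 11.8, 11.7 and 11.5 CPM with MitoGamide. Only WT MitoGamide 2 reached the vehicle range. The log2 fold change was -0.26 (SE 0.08, unadjusted p = 0.00645, edgeR adjusted p = 0.327). The MitoGamide effect did not differ between the genotypes beyond its error (interaction -0.10, SE 0.12, interval -0.35 to 0.15, edgeR adjusted p = 0.823).

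Averaged over both genotypes, a test added after the data were examined, Fn3k fell with MitoGamide by 0.31 on the log2 scale (SE 0.06, interval -0.44 to -0.19, edgeR adjusted p = 0.00609), or 1.24-fold. It was 1 of 7 genes called (background 6.53%, 3.82% higher and 2.7% lower). The call was made in 20 of 20 fits with 1 library left out, with edgeR adjusted p-values from 0.0052 to 0.0156. DESeq2 called it as well, beside 9.75% of all genes. Counts of Fn3k were 63 to 365 per library over the series. In the same test 0 of 6 proximal tubule markers and 1 of 4 endothelial markers (higher) were called. The sum of the mitochondrial genes (unscaled) was 245920 to 278107 CPM with MitoGamide and 200905 to 226317 CPM on ethanol vehicle in WT mice. In Akita mice it was 279975 to 354009 against 215732 to 286718 CPM. Its part in the difference of Fn3k was not tested. In the water arm the corresponding average for MitoQ was -0.11 (SE 0.08, edgeR adjusted p = 0.959). Whether the 2 compounds differ was not tested, since the arms differ in vehicle and the labels give no dose for MitoQ.

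Hagh had MitoGamide log2 fold changes of opposite sign in the genotypes, neither of them called. From the ethanol values of 109, 105, 91.0, 114 and 97.4 CPM in Akita mice to the MitoGamide values given above, the log2 fold change was 0.19 (SE 0.09, edgeR adjusted p = 0.226). In WT mice it was -0.15 (SE 0.07, adjusted p = 0.506), from 106, 99.0, 108, 101 and 95.4 CPM on ethanol vehicle. The difference between the genotypes was 0.33 (SE 0.11, interval 0.09 to 0.57), with an unadjusted p of 0.00842 and an edgeR adjusted p of 0.571, so it did not pass the correction. It was the only one of 7 genes with an unadjusted p under 0.05 in that interaction, beside 8.32% of all genes (0 called, background 0.0%, and 0 called by DESeq2).

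The level of Ldhd did not differ with MitoGamide beyond its error in Akita (log2 fold change -0.10, SE 0.17, interval -0.47 to 0.28, and 0.05 without Akita MitoGamide 5) or WT mice (-0.27, SE 0.14, interval -0.58 to 0.04). Park7, Akr1a1, Glo1 and Fn3krp gave values between -0.03 and 0.03 in Akita and between -0.17 and -0.05 in WT mice. Their intervals allow changes of at most 0.33 on the log2 scale in either direction.

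MitoQ against water vehicle gave no call among the 8 genes in Akita (0 of 8, background 0.0%) or the 7 tested in WT mice (0 of 7, background 0.0%). None had an unadjusted p under 0.05 in edgeR, beside 1.96% of all genes in Akita and 3.22% in WT mice. DESeq2 called 0 in each, beside 0% and 0.0112% of all genes. The intervals were wide. For Ldhd the log2 fold change was 0.32 in Akita mice (SE 0.23, interval -0.18 to 0.82) and 0.02 in WT mice (SE 0.24, interval -0.51 to 0.54). For Akr1a1 it was 0.20 (SE 0.28, interval -0.40 to 0.80) in Akita and -0.20 (SE 0.32, interval -0.90 to 0.50) in WT mice. Without the libraries that stand apart these values were 0.21 and 0.13 for Ldhd and -0.07 and -0.27 for Akr1a1, again not called. The genotypes were not shown to differ in the MitoQ effect for any gene (0 of 8 called by edgeR, background 0.0%, and 0 by DESeq2). At an unadjusted p under 0.05 there were 0, beside 1.14% of all genes.

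**Figure D3:**
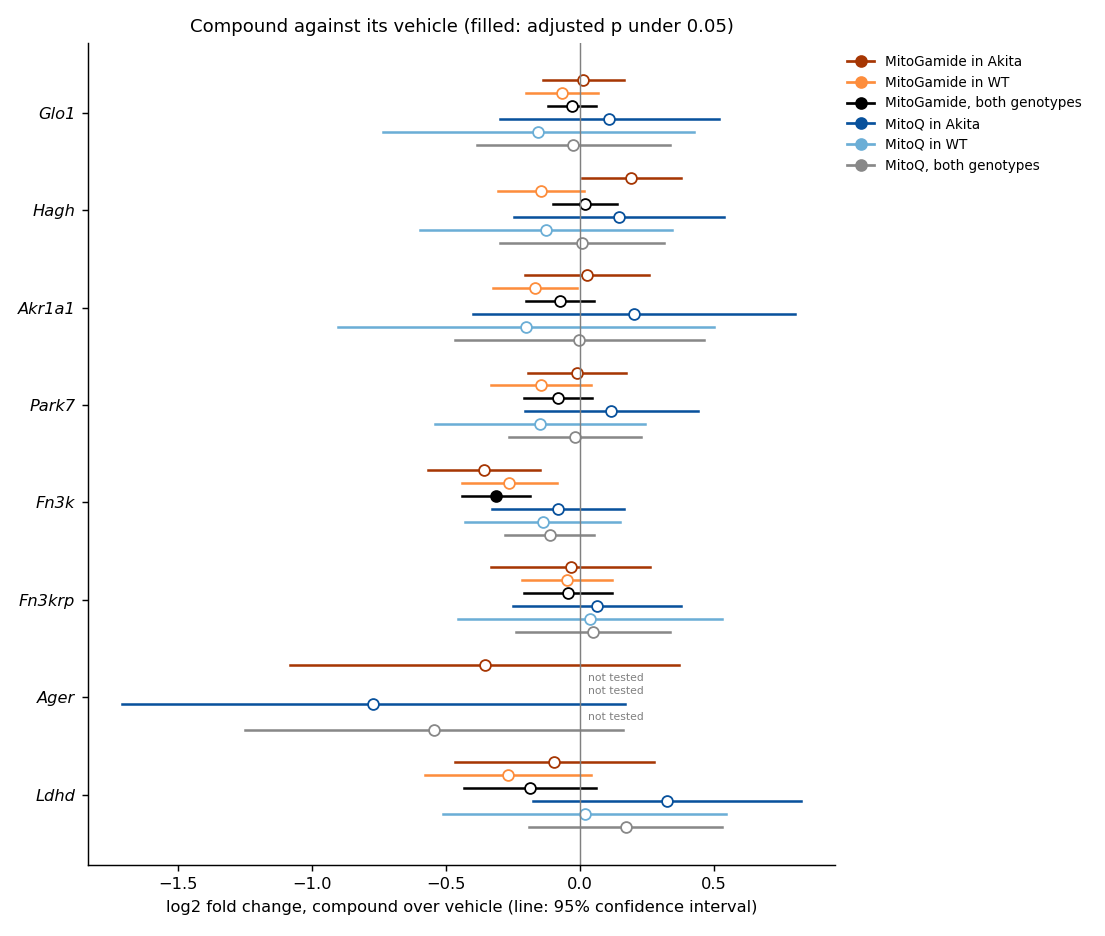
Log2 fold change of MitoGamide against ethanol vehicle and of MitoQ against water vehicle for each gene, in Akita and WT mice and averaged over both (horizontal axis). Lines are 95% intervals and the filled point, Fn3k averaged over both genotypes with MitoGamide, is the only edgeR call; intervals of the MitoQ arm are wider than those of the MitoGamide arm for most genes.

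The 2 arms differed in how far mice of one group scattered. The coefficient of variation of Glo1 within a group was 4.42% to 7.15% in the ethanol arm (vehicle and MitoGamide groups) and 17.5% to 34.7% in the water arm (vehicle and MitoQ groups). It was 4.99% to 10.6% against 18.0% to 29.9% for Hagh, and 5.05% to 13.2% against 28.1% to 37.7% for Akr1a1. For Park7 it was 5.82% to 10.99% against 14.4% to 20.2%. For these 4 genes every group of the water arm varied more than every group of the ethanol arm. The share of all genes that do so was not counted, and most of the libraries that stand apart are in the water arm. Without the 6 libraries that stand apart (3 to 5 mice per group, a check chosen after seeing the data), the ranges were 4.42% to 7.15% against 8.05% to 30.3% for Glo1, 4.99% to 10.6% against 12.9% to 22.1% for Hagh and 5.24% to 13.2% against 18.8% to 28.1% for Akr1a1. Park7 then no longer separated the arms, at 6.59% to 10.99% against 9.14% to 17.8%, and in the WT MitoQ group without WT MitoQ 3 Glo1 went from 27.1% to 8.05% and Park7 from 16.6% to 9.14%.

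The other 4 genes did not show this separation. The coefficient of variation of Fn3k was 5.76% to 11.7% in the ethanol arm and as little as 7.70% in the water arm, and that of Ldhd 9.85% to 25.6% and 21.6% to 28.8%. Fn3krp ranged from 3.84% to 20.6% and from 14.4% to 27.5%, the 20.6% being that of Akita MitoGamide, which holds Akita MitoGamide 5. Without the libraries that stand apart Fn3krp ranged from 3.84% to 12.1% and from 9.61% to 14.4%, and Ldhd from 9.85% to 22.7% and from 14.7% to 27.4%. The part of any other difference between the arms in this spread was not tested.

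Scatter in the water arm was shared between several of the genes. Akr1a1 in WT water mice was at 1181, 757, 417, 806 and 1205 CPM and in WT MitoQ mice at 688, 1059, 396, 877 and 774 CPM, the lowest value of each group being that of a library that stands apart. Glo1 in the same mice was at 77.7, 41.1, 34.7, 43.3 and 65.1 CPM and at 46.5, 56.5, 25.1, 53.0 and 53.2 CPM, with the lowest values in the same 2 libraries. The lowest mice for one gene were thus the lowest for the other.

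Described as a correlation of log levels with the group means removed, over the 20 libraries of an arm, which share library depth and composition, Glo1 and Akr1a1 had Pearson's r of -0.04 in the ethanol arm and 0.94 in the water arm. Glo1 and Hagh had r of 0.29 and 0.90. Akr1a1 and Park7 were correlated in both, at 0.77 and 0.90. Over all 40 libraries, genes outside the set also followed Glo1 and Akr1a1 closely with the group means removed. There r was 0.949 for Glo1 with Tm2d3 and 0.973 for Akr1a1 with Atp5b, both among the closest of 10150 genes. How common such values are among all genes in the water arm was not counted. The correlations therefore do not show a link particular to the genes examined here. Ager ran the opposite way in the water arm, with r of -0.71 with Glo1, -0.70 with Hagh, -0.74 with Akr1a1, -0.70 with Park7 and -0.61 with Fn3krp. With 1 to 24 counts of Ager per library over the series, these values rest on few counts. The part of the scaling between libraries in them was not tested. Fn3k had r between -0.17 and 0.19 with each of the other 7 genes in the water arm. Without the libraries that stand apart (15 in the water arm), r in the water arm was 0.88 for Glo1 and Akr1a1, 0.94 for Glo1 and Hagh and 0.92 for Akr1a1 and Park7, that of Fn3k with the other 7 ran from -0.47 to -0.12 and that of Ager with the same 5 genes from -0.60 to -0.19.

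**Figure D4:**
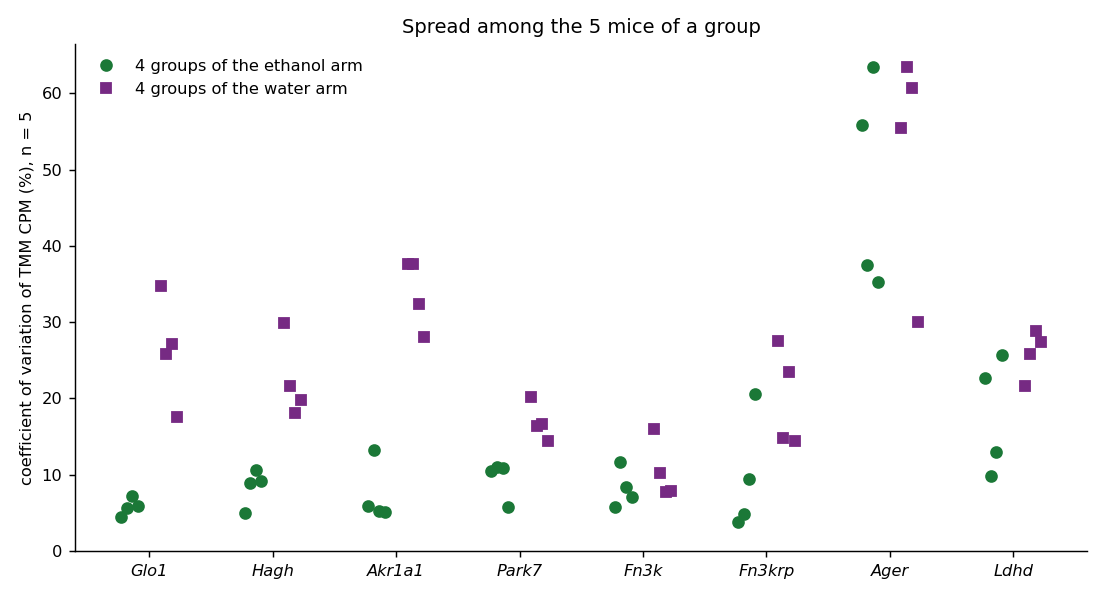
Coefficient of variation (percent) of each gene within each group of 5 mice, ethanol arm (green) and water arm (purple), all libraries included. Glo1, Hagh, Akr1a1 and Park7 have all 4 water-arm groups above all 4 ethanol-arm groups, which for Park7 is lost without the libraries that stand apart, and Fn3k, Fn3krp, Ager and Ldhd do not. The share of all genes with this separation was not counted.

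Ethanol against water vehicle in Akita mice, which compares the 2 vehicle groups, gave no call among the 8 genes in edgeR (0 of 8, background 12.7%). An unadjusted p under 0.05 was reached by 6 of the 8, beside 39.7% of all genes, and DESeq2 called 4 (Hagh, Akr1a1, Fn3krp and Ldhd), beside 23.8% of all genes. The 6 had log2 fold changes, ethanol over water, of 0.64 for Akr1a1 (SE 0.24), 0.43 for Ldhd (SE 0.17), 0.42 for Hagh (SE 0.15), 0.35 for Glo1 (SE 0.16), 0.33 for Fn3krp (SE 0.11) and 0.32 for Park7 (SE 0.13), and edgeR adjusted p-values from 0.0664 to 0.125. Fn3k was at -0.12 (SE 0.11). In the same mice mt-Co1 (unscaled) was at 15015 to 17652 CPM on ethanol vehicle and at 3273 to 16844 CPM on water vehicle. The part of this in the differences of the 8 genes was not tested. Without Akita water 1, whose values were the highest or second highest of its group for most genes, edgeR called 5 of the 8, beside 36.2% of all genes, and without Akita water 4 it called Hagh, Akr1a1 and Fn3krp, beside 34.5% of all genes. Without Akita water 2 and 5, which stand apart, it called 0, and the log2 fold changes were 0.37 for Akr1a1, 0.31 for Ldhd, 0.32 for Hagh, 0.14 for Glo1, 0.21 for Fn3krp and 0.23 for Park7, with 1 gene called over all genes in place of 2283. In WT mice 0 of 7 were called (background 0.0%), with 0 at an unadjusted p under 0.05 (27.4% of all genes) and 0 by DESeq2 (4.01% of all genes). Without WT water 5, edgeR called 28.6% of all genes.

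The genes whose levels followed each of the 8 most closely were taken from the 10150 genes averaging 100 counts or more, by Pearson's r of log levels over the 40 libraries. For Ldhd they were Proc (protein C, r = 0.963), Acy3 (aminoacylase 3, 0.958) and Ivd (isovaleryl-CoA dehydrogenase, 0.957), and these remained at 0.902, 0.885 and 0.910 with the group means removed. For Akr1a1 they included Slc25a3 (the mitochondrial phosphate carrier, 0.980) and Atp5b (a subunit of ATP synthase, 0.979). For Hagh they were Actr1a (0.953), Cox6b1 and Ndufb6 (both 0.944), the latter pair being subunits of complexes IV and I. For Glo1 they were Tm2d3 (0.963), Vapb (0.960) and Timm29 (0.959), and for Park7 Gaa, Ppdpf and Ergic3 (0.896 to 0.889).

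Fn3k was less closely followed by any gene. Its nearest was Mafg, a small Maf protein that pairs with NRF2, at r = 0.793, and 0.337 with the group means removed. Mafg was at 53.1 ± 5.73 CPM in Akita mice on ethanol vehicle and at 37.7 ± 2.69 CPM with MitoGamide (SD, n = 5), and the difference was -0.49 on the log2 scale (SE 0.09, edgeR adjusted p = 0.0299). That call was lost without Akita ethanol 1 or 2, where edgeR called 0 genes of all tested in this comparison. For Fn3krp the nearest was Rab22a (0.884) and for Ager Trim41 (0.840).

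The 8 genes act among a wider set of carbonyl, glutathione and AGE genes, which was described in 7 lists. Among 19 other dicarbonyl and aldehyde reductases and dehydrogenases, 6 were higher and 3 lower in Akita in the averaged edgeR test, with a median log2 fold change of 0.02 (all genes, -0.02). Of all genes 22.8% were called in this test, 11.9% lower and 10.9% higher, and these shares apply to the counts of the other 6 lists as well. The 4 with the smallest p-values were Cbr3 (2.14, SE 0.23, adjusted p = 5.89e-09), Aldh1a1 (2.05, SE 0.19, adjusted p = 2.28e-10), Aldh1a7 (1.77, SE 0.19) and Cbr1 (1.49, SE 0.17), carbonyl reductases and aldehyde dehydrogenases. Aldh1a1 and Aldh1a7 are close paralogues, so reads that match both were divided between them by estimation and the values of each are uncertain to that extent. Aldh1a1 was at 4.45 to 13.9 CPM in WT and at 26.6 to 39.2 CPM in Akita mice on ethanol vehicle, with no overlap. On average these 4 were higher in Akita, whereas Akr1a1 itself was at 0.07.

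A list of glyoxalase-like proteins, which also holds Dlat (a subunit of pyruvate dehydrogenase) and Hibch (a hydrolase of valine breakdown), neither of them called, gave 0 higher and 1 lower of 10, the mitochondrial endoribonuclease gene Lactb2 (-0.29, SE 0.10, edgeR adjusted p = 0.0263), and a median of -0.01. A list of genes around methylglyoxal formation also holds enzymes that use its precursors in glycolysis, among them Gapdh and Gpd1, both called higher. Of 13 tested, 5 were higher and 1 lower, with a median of 0.17, and these counts do not measure the supply of methylglyoxal. Aldoc (an aldolase, 0.80, SE 0.18) and Gpd1 (glycerol-3-phosphate dehydrogenase, 0.35, SE 0.08) were higher, and Cyp2e1, which oxidizes acetone, was lower (-0.62, SE 0.14, edgeR adjusted p = 0.00115). Aldoa was called on MitoGamide alone (0.41, SE 0.09, adjusted p = 0.00977) and not on average (0.17).

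Of 12 genes of glutathione supply tested, 2 were higher and 4 lower, with a median of -0.09. Ggct, which cleaves gamma-glutamyl dipeptides, was lower in Akita by an average of 1.05 on the log2 scale (log2 fold change -1.05, SE 0.09, edgeR adjusted p = 1.84e-11), from 20.5 to 29.3 CPM in WT to 11.5 to 13.7 CPM in Akita mice on ethanol vehicle. Oplah (5-oxoprolinase, 0.54, SE 0.07) and Gstm1 (0.49, SE 0.09) were higher and Ggt1 was lower (-0.62, SE 0.09). Among the genes of lactate handling other than Ldhd, 0 of 9 were called on average. Slc16a1, a lactate transporter, was lower on ethanol vehicle (-0.74, SE 0.14, adjusted p = 0.00265) and not called elsewhere. Its log2 fold changes were 0.52 on MitoGamide, -0.13 on water vehicle, 0.17 on MitoQ and -0.05 on average. On MitoGamide 1 Akita mouse was at 130 CPM, in a group at 54.9 ± 43.9 CPM against 38.6 ± 16.1 CPM in WT mice (SD, n = 5). The sign of the value of 0.52 thus rests on a single mouse. Ldhb was higher on MitoGamide (0.30, SE 0.08, adjusted p = 0.0330).

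RAGE ligands and other AGE receptors gave 6 higher and 3 lower of 12 tested, with a median of 0.19. Stab1 (stabilin 1, 0.50, SE 0.08), Lgals3 (galectin 3, 0.43, SE 0.10) and Diaph1 (0.39, SE 0.06), whose protein binds the tail of RAGE, were higher in the averaged edgeR test. Cd36, a scavenger receptor, was lower (-1.11, SE 0.17, adjusted p = 2.77e-06). Macrophage markers, which belong to cells that express several of these receptors, gave 0 higher and 2 lower of 4, and endothelial markers 2 higher and 1 lower of 4, and their part in these differences was not tested.

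Of 11 genes of the NRF2 pathway, which acts through the antioxidant response element, 2 were higher and 1 lower on average, with a median of 0.09. Nqo1, a quinone reductase, was higher (0.74, SE 0.10, edgeR adjusted p = 7.39e-07) and Mafg lower (-0.21, SE 0.06, adjusted p = 0.00587). Hmox1 was lower on ethanol vehicle (-0.73, SE 0.12, adjusted p = 0.00130) and not called elsewhere, with log2 fold changes of 1.94 on MitoGamide (1 Akita mouse at 336 CPM), -0.08 on water vehicle, 0.55 on MitoQ and 0.41 on average. Srxn1 was higher on MitoGamide alone (0.52, SE 0.12, adjusted p = 0.0136). On water vehicle, 1 gene of the 7 lists was called, Ggct (log2 fold change -1.07, SE 0.17, adjusted p = 0.0157), and on MitoQ 2 were, Aldh1a1 and Aldh1a7.

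**Figure D5:**
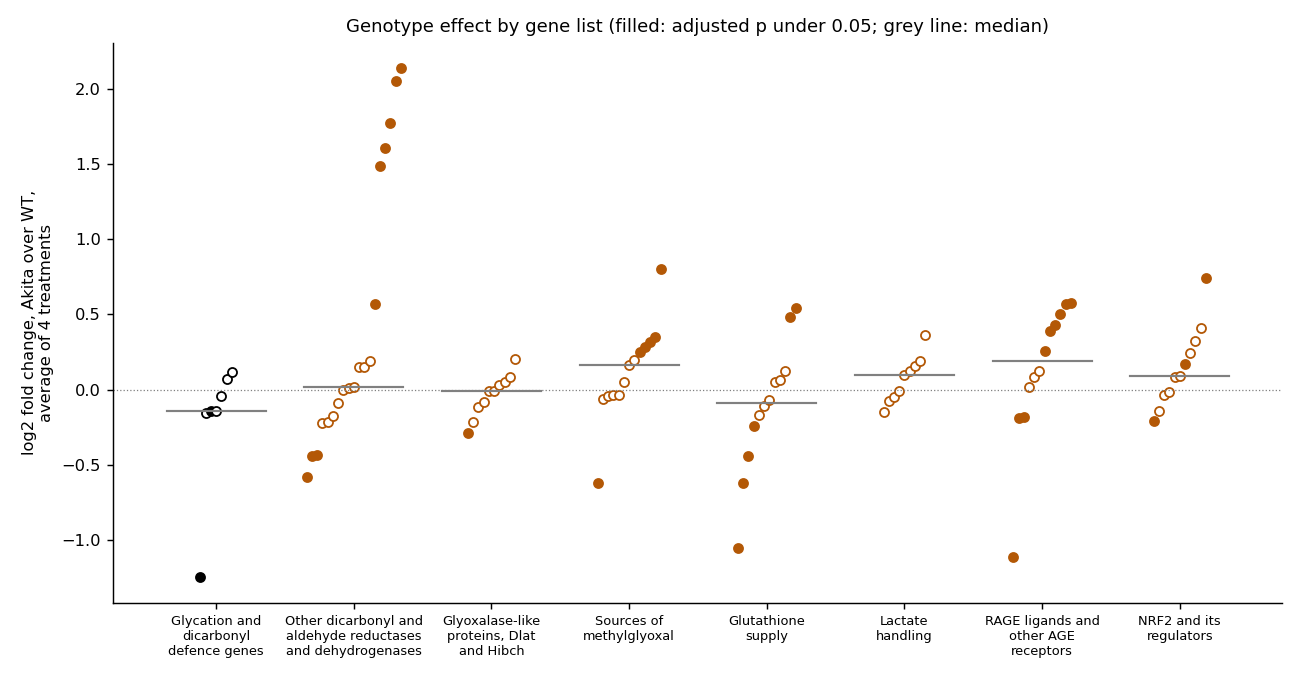
Log2 fold change of Akita against WT averaged over the 4 treatments (vertical axis) for the tested members of the 8 genes and of the 7 lists (horizontal axis). Filled points are called at an edgeR adjusted p under 0.05 and grey lines are medians, which lie between -0.09 and 0.19 for the 7 lists; Cbr3, Aldh1a1 and Aldh1a7 stand highest, and Cd36 and Ggct lowest among the lists.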

How the data were processed

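RNA-seq libraries (1 per mouse, renal cortex, ribosomal RNA depletion, directional kit, single reads of 100 cycles) were made, trimmed with Skewer at a Phred score of 20 and quantified with kallisto 0.46.1 against Gencode mouse version 25 (GRCm38) by the authors. The deposited values are estimated counts per gene, given as whole numbers, for all 40 samples, and 0 columns were left unmapped. Whether kallisto was run with strand information is not given in the sources used here, so overlapping genes on opposite strands may share counts.

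Levels are CPM (per 1000000 counts) scaled by trimmed mean of M values (TMM) over 40 libraries. Comparisons used edgeR 4.0.16 (R 4.3.3): TMM within the libraries compared, genes averaging 10 counts or more, the quasi-likelihood test, Benjamini-Hochberg adjustment over all genes tested and a call at an adjusted p under 0.05. SE was obtained as the log2 fold change over the root of the F statistic, and intervals are 95%. Each fit used only the libraries compared, and the averaged genotype tests used all 40. Alternatives were DESeq2 1.42.0, DESeq2-type size factors in edgeR, no count filter, at least 10 counts in every library, treatment as an additive covariate, 1 fit of 40 libraries, the replicate number as a block, each library left out and, chosen after seeing the data, leaving out the 6 libraries that stand apart (mean correlation over 3 scaled median absolute deviations under the median). The drug effects averaged over both genotypes were also added after seeing the data.

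The 8 genes and the lists were chosen with earlier results of these data known. All 8 genes are described. Of each list at most 4 called genes with the smallest p are named. Some results for single genes are not reported here. Gene models came from Gencode version M21, in which 99.5% of the identifiers were found, and promoters from RefSeq. Each library is a separate mouse.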

Additional observations from a re-analysis of the deposited data

Results flagged for a closer look

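Glo1 in the Akita MitoQ group held a value far from the others: mouse 1 was at 63.0 CPM and the other 4 were at 42.7 to 46.2 CPM. The gap to the nearest mouse was 0.828 of the range of the group, over the 95% critical value for 5 samples in Dixon's test. Of 64 groups examined (8 genes in 8 groups) this was the only one, and chance alone gives about 1 in 20, or 3.2.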

How the results depend on the processing

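Of 1193 values of a gene in a comparison under an alternative, 1130 kept their direction and their side of the threshold, 42 lost the call, 20 gained one and 1 reversed (Fn3krp, ethanol against water vehicle in WT mice, -0.0148 on the log2 scale without the libraries that stand apart). Of the genes' counts of calls, 321 of 371 were the same. For Akita against WT on ethanol vehicle, 2 genes were called and 1 without a count filter, in 1 fit of all 40 libraries and with the replicate block, and 1 to 2 with each library left out. On MitoGamide the count of 2 became 3 with DESeq2 (Akr1a1 gained), which called 18.5% of all genes there. It became 1 in the fit of 40 libraries and 1 to 2 with a library left out. On water vehicle the count of 1 became 0 with the replicate block and without the libraries that stand apart, and 0 to 1 with a library left out. On MitoQ the count of 0 became 1 with DESeq2, in the fit of 40 libraries and without the libraries that stand apart, and 0 to 1 with a library left out. DESeq2 called 1 gene for MitoGamide in Akita mice and 4 for ethanol against water vehicle in Akita mice, where leaving out a library gave 0 to 5. For the average over treatments, 2 became 1 without a count filter and without the libraries that stand apart, and 1 to 3 with a library left out. The cause of these shifts was not tested.

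Replicate numbers are shared by the groups but do not mark shared animals. In no comparison did every pair of same-numbered mice deviate together: correlations of their deviations ran from -0.01 to 0.08 on ethanol vehicle and from -0.53 to 0.56 on water vehicle, with 2 and 3 of 10 mice closest to their own number. As a block, the number changed the calls of all genes from 2910 to 2566 on ethanol vehicle, 101 to 32 on water vehicle, 101 to 48 on MitoQ, 214 to 0 for MitoGamide in Akita mice and 2283 to 0 for ethanol against water vehicle in Akita mice. Among the 8 genes it took the calls of Glo1 on ethanol vehicle (adjusted p = 0.0580) and Ldhd on water vehicle (0.0559).

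Counts over all genes depended on the method in comparisons with few and with many calls. DESeq2 called 354 on water vehicle, 415 on MitoQ, 1069 for MitoGamide in Akita mice, 4264 for ethanol against water vehicle in Akita and 725 in WT mice, where edgeR called 101, 101, 214, 2283 and 0. Without the libraries that stand apart, edgeR called 4 on water vehicle, 270 on MitoQ, 802 for MitoGamide in Akita mice and 1 for ethanol against water vehicle in Akita mice. The fit of 40 libraries called 873 on ethanol vehicle, 543 on water vehicle, 299 on MitoQ, 41 for MitoGamide in Akita mice and 44 for MitoGamide averaged over both genotypes. In WT mice it called 1570 for ethanol against water vehicle and 27 for MitoQ, where the main fits called 0. No count filter gave 448 for that average and 1352 for ethanol against water vehicle in Akita mice. Of 64 group levels, 5 moved by over 1 SD without TMM. At 1 to 24 counts per library, Ager limits what can be said of it.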

Other observations

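MitoGamide, averaged over both genotypes (a test added after the data were examined), was also described for some of the 7 pathway lists. The lists of methylglyoxal formation, glutathione supply and lactate handling are not reported here. Of all genes 6.53% were called in this test (3.82% higher and 2.7% lower). Of the 10 genes of the list of glyoxalase-like proteins, Dlat and Hibch included, 2 were higher and 0 lower, among them Lactb2 at a log2 fold change of 0.28 (SE 0.07, edgeR adjusted p = 0.0249), a gene with a lower averaged level in Akita mice in the genotype test. Of 11 genes of the NRF2 pathway 2 were higher and 1 lower, the latter being Mafg (-0.37, SE 0.05, edgeR adjusted p = 0.000892). Mafg was at 60.7 ± 2.34 CPM in WT mice on ethanol vehicle and at 51.2 ± 2.62 CPM with MitoGamide (SD, n = 5). Of 12 RAGE ligands and AGE receptors 2 were higher and 0 lower, and of 19 other reductases and dehydrogenases 0 were higher and 1 lower.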
